A study of Mus musculus with 18 samples.

Results

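The nuclei described here were inhibitory neurons of the mouse embryonic forebrain that were chosen by their RNA for Zic4, Prdm12 and Trpc4. They were selected from all nuclei with 800 to 6000 UMIs (unique molecular identifiers, each standing for 1 captured RNA molecule), 300 to 3000 genes and at most 1% mitochondrial UMIs. A nucleus was a member if it held at least 1 UMI of Gad1, Gad2 or Dlx6os1, at least 2 of the 6 marker genes Zic4, Prdm12, Trpc4, Ecel1, Fgf15 and Tmem255a with Zic4 or Prdm12 among them, and no UMI of Ebf1, Lhx6, Prox1, Neurod2, Neurod6 or Top2a. Of 201913 nuclei kept from 261143 barcodes, 2547 were members, which is 1.26% of all nuclei and 5.05% of the 50481 inhibitory nuclei.

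The nuclei came from flash-frozen forebrains, with the meninges removed, of embryos of the MYT1L S710fsX line (C57BL/6-Myt1lem1Jdd/J, kept by crossing to C57BL/6 J) labelled as embryonic day 14, from 3 litters of Het by Het matings. They carried no (WT), one (Het) or both (KO) copies of Myt1l as the germline S710fsX frameshift allele, with 3 embryos per genotype. Each embryo gave a library in each of 2 runs of combinatorial-barcode single-nucleus RNA sequencing. Because the allele is present in every cell of the embryo, the comparison of genotypes does not separate effects within the members from effects of other cells.

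Myt1l encodes a zinc finger transcription factor of neurons. The Zic genes encode zinc finger factors that pattern the dorsal and rostral midline of the forebrain, where the septum arises, and septal neurons include GABAergic projection neurons and cholinergic neurons. Prdm12 and Prdm16 encode PR-domain zinc finger factors, Trpc4 a cation channel, Ecel1 a membrane peptidase of neurons and Fgf15 a secreted growth factor. Gad1 and Gad2 encode the enzymes that make GABA.

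The 18 libraries held 12012847 to 62137112 UMIs in 3262 to 22487 kept nuclei. Median UMIs per nucleus were 2739 to 4149.5 in run 1 and 1906 to 2836 in run 2. The members gave 731403 to 1264626 UMIs per animal from 193 to 390 nuclei. Of the members, 469 came from run 1 and 2078 from run 2, which is 1.20% and 1.27% of the nuclei of each run. The barcodes of 44 members also occurred in another library, and none occurred in 2 members. In inhibitory nuclei Xist, which is transcribed from the inactive X chromosome of females, had 367 CPM (UMIs of a gene per 1000000 UMIs) in WT 3 and at most 1.03 CPM in the other 8 animals, so sex differed within WT. The paper describes each genotype at this age as a mix of males and females, which these Xist values do not show for Het or KO. Without WT 3, edgeR called 0 genes in members in either mutant, as with it.

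The markers that chose the members were unevenly detected. Zic4 had a UMI in 86.1% of members, Trpc4 in 79.8%, Prdm12 in 39.7%, Ecel1 in 35.7%, Fgf15 in 31.9% and Tmem255a in 22.7%. In excitatory nuclei with Neurod2 or Neurod6, which served as background, the shares were 2.17%, 5.00%, 0.395%, 0.64%, 0.483% and 0.646% in the same order, at a median of 2876 UMIs against 3175 in members. Zic4, Trpc4, Ecel1, Fgf15 and Tmem255a were all detected more often in inhibitory nuclei outside the members than in this background. Trpc4 had a UMI in 26.3% of those with Lhx6, 20.5% of those with Prox1 and 18.8% of those with none of Ebf1, Lhx6 and Prox1, and Zic4 in 9.41% of those with Prox1 and 3.79% of those with none, at medians of 2479.5, 2391 and 2122 UMIs in these 3 classes. Ecel1 had a UMI in 6.74% of inhibitory nuclei with Ebf1, at a median of 2741 UMIs, and in 3.43% of those with none. Zic4 was also detected in 5.79% of nuclei with Top2a. Zic4 without Prdm12 was found in 1537 members, Prdm12 without Zic4 in 355 and both in 655. These values were used to choose the members and are given as a description.

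Just inside the threshold were 1002 members with 2 of the 6 markers. The other members held 3 (855 nuclei), 4 (504), 5 (167) or 6 (19). Just outside were 1016 nuclei with Zic4 or Prdm12 as the lone marker, and 600 with at least 2 of the other markers and neither of these. Of 3776 nuclei that met the marker rule, 1229 were left out for an excluded gene, most often the cell cycle gene Top2a (497 nuclei).

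Members lay close to each other in the expression of genes other than those of the rule. Nearest neighbours were found among all inhibitory nuclei in 30 principal components of 2000 variable genes, with the genes of the rule left out. Zic1, which shares bases with Zic4 of the rule, and the nearby gene Gm29478 were not barred from these genes. These values are thus not fully separate from the rule, and the part of such genes in them was not tested. On average 59.7% of the 20 nearest neighbours of a member were members, against 5.05% members among inhibitory nuclei and 9.78% among those without Ebf1, Lhx6 or Prox1, genes that no member may hold. The average per animal was 54.1% to 64.7%. It was 47.4% for members with 2 markers and 82.9% for those with 6, and 2.83% of members had no member among their neighbours. Depth moved with these values, since median UMIs were 3175 in members and 2122 in other inhibitory nuclei without these genes, and 2838.5 in members with 2 markers against 3551 in those with 6. With every nucleus thinned to 1500 UMIs, an alternative chosen after the data were seen, the average was again 59.7% over 2356 members (12.2% members among nuclei without the 3 genes), with 47.6% at 2 markers and 76.8% at 6. Other inhibitory nuclei without Ebf1, Lhx6 or Prox1 made up 29.4% of the neighbours, those with Ebf1 4.93%, those with Lhx6 2.85% and those with Prox1 2.69%. Of the neighbours, 87.0% came from another animal, against 88.7% among inhibitory nuclei at large.

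**Figure D1:**
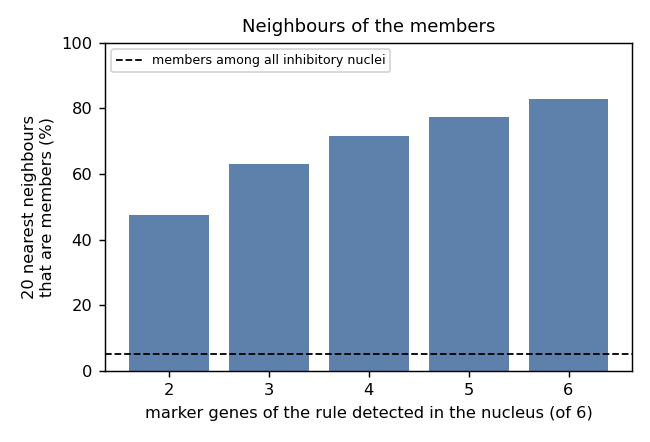
Mean share of the 20 nearest neighbours that were members (bars, in percent) by the number of the 6 markers detected in the nucleus, with the share of members among inhibitory nuclei as a dashed line. The bars go from 47.4% at 2 markers to 82.9% at 6, all above the line at 5.05%.

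Members were next set beside the 23501 inhibitory nuclei that held none of Ebf1, Lhx6 and Prox1 and were not members, called other inhibitory nuclei here. Levels are CPM of counts summed per animal, and differences are means over 9 animals of log2 ratios with 1 CPM added. No test was made, because genes of these nuclei chose the members. Of 9464 genes with at least 10 CPM in either class, 1139 (12%) were higher in members in all 9 animals and 1420 (15%) were lower in all 9. The median difference over these genes was -0.06.

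Zic1, Zic2 and Zic5, relatives of Zic4, were higher in members in all 9 animals. Zic1 in members had 589, 611 and 722 CPM in WT, 495, 540 and 643 in Het and 454, 523 and 651 in KO. In other inhibitory nuclei it ranged from 46.9 to 110 CPM over the 9 animals, below the lowest member value. Zic2 was at 76.3 ± 9.72 CPM (SD, n = 9) against 8.51 and Zic5 at 77.1 ± 20.1 against 7.66. The log2 differences were 2.77 for Zic1, 3.03 for Zic2 and 3.18 for Zic5.

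The Zic genes of chromosomes 9 and 14 lie in head-to-head pairs. In GRCm38 and by the GENCODE gene models, Zic1 (chromosome 9, 91358058 to 91365810, minus strand) and Zic4 (91362413 to 91389348, plus strand) share 3398 bases. The long noncoding gene Gm29478 (91404474 to 91562818, plus strand) starts 15125 bases after Zic4. Its difference of 3.19 was the largest of the named genes that were higher in members, with 625 ± 63.4 CPM in members against 70.6. Zic5 and Zic2 lie 9757 bases apart on chromosome 14. The sources used here do not say how strand was handled in counting, so reads in the bases shared by Zic1 and Zic4 cannot be told apart, and the rule used Zic4.

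The start regions of the 3 neighbouring genes of chromosome 9 are shown because these genes were all high in members. They are RefSeq sequences of GRCm38.p6, from 250 bases before to 50 bases after the gene start that RefSeq gives, 5′ to 3′ on the strand of the gene. Capitals mark AAGTT or its reverse complement AACTT, the core of the motif bound by the MYT1 family. The Zic1 window is chr9:91365719-91366018 (minus strand), the Zic4 window chr9:91368722-91369021 (plus strand) and the Gm29478 window chr9:91404103-91404402 (plus strand). The RefSeq starts differ from the GENCODE ones given above, so that the Zic4 window lies inside the GENCODE gene and the Gm29478 window ends before the GENCODE start.
Zic1: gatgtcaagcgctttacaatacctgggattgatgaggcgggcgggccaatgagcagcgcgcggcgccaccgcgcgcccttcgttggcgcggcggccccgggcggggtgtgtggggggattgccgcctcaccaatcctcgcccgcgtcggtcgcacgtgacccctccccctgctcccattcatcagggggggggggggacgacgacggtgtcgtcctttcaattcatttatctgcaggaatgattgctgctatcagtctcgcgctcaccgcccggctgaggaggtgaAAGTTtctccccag
Zic4: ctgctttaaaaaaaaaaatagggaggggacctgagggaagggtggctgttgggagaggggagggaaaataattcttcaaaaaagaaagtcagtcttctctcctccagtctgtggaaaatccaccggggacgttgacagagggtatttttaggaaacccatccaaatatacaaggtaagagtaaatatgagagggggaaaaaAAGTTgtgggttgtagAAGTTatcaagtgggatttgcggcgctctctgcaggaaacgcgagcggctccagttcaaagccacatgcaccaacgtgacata
Gm29478: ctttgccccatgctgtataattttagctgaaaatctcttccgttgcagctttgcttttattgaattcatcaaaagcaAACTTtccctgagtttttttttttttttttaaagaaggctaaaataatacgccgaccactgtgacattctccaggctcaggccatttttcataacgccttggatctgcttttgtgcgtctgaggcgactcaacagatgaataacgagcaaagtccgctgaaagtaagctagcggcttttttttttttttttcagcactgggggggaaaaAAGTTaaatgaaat
The core occurs 1 time in the Zic1 window and 2 times each in those of Zic4 and Gm29478. It occurs in 39.3% of all 32851 windows of this length, and is thus common. The Prdm12 window holds no match, which says only that these letters are absent from it.

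Prdm16, a transcriptional regulator of neural progenitors, was also high. Its members' levels were 764, 962 and 941 CPM in WT, 770, 706 and 877 in Het and 789, 701 and 956 in KO, against 85.6 to 116 CPM in other inhibitory nuclei. Classes did not overlap in any animal, and the log2 difference was 3.10 ± 0.14 (SD, n = 9). Prdm16 was at 391 CPM in nuclei with Top2a and 24.0 in inhibitory nuclei with Lhx6. Of the 7 measured Prdm genes outside the rule, Prdm16 alone was higher in all 9 animals.

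Otx2, a homeobox factor of the rostral brain, was at 43.4 ± 10.1 CPM against 4.97, and its antisense neighbour Otx2os1 at 110 ± 21.3 against 16.6. They share 5112 bases and cannot be told apart there. Among the other genes with the largest differences were Ano1, a calcium-activated chloride channel (413 against 52.0 CPM), Gfra1, a receptor for GDNF (359 against 62.7), Fgd5, an exchange factor for Cdc42 (276 against 31.7), and Zfp521, a zinc finger factor (816 against 178). Aifm3, Ptpn3, Styk1, Rtn4rl1, Clybl, Rftn1, Megf11 and Efcab1 had differences of 2.20 to 2.80. Zfp521 and Iqschfp were not particular to members. Inhibitory nuclei with Ebf1 had 550 CPM of Zfp521 and 1378 of Iqschfp, against 816 and 1251 in members.

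Among the lowest genes against other inhibitory nuclei was Nr2f1, a nuclear receptor, at 18.7 ± 10.4 CPM against 211. Nr2f1 was broadly present outside members, with 346 CPM in nuclei with Top2a and 258 in those with Neurod2 or Neurod6. Maf, a factor of medial ganglionic eminence interneurons, was at 6.35 ± 3.07 against 75.9, and Ackr3, a chemokine receptor of migrating interneurons, at 4.08 ± 1.88 against 51.1. Neb, Syt6, Cntnap3 and the transcripts A830082K12Rik and B130024G19Rik were lower as well, with differences of -3.34 to -4.09. A830082K12Rik (chromosome 13, 78198017 to 78279391, plus strand) overlaps Nr2f1 (78188973 to 78199757, minus strand). Reads in the bases they share cannot be told apart.

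**Figure D2:**
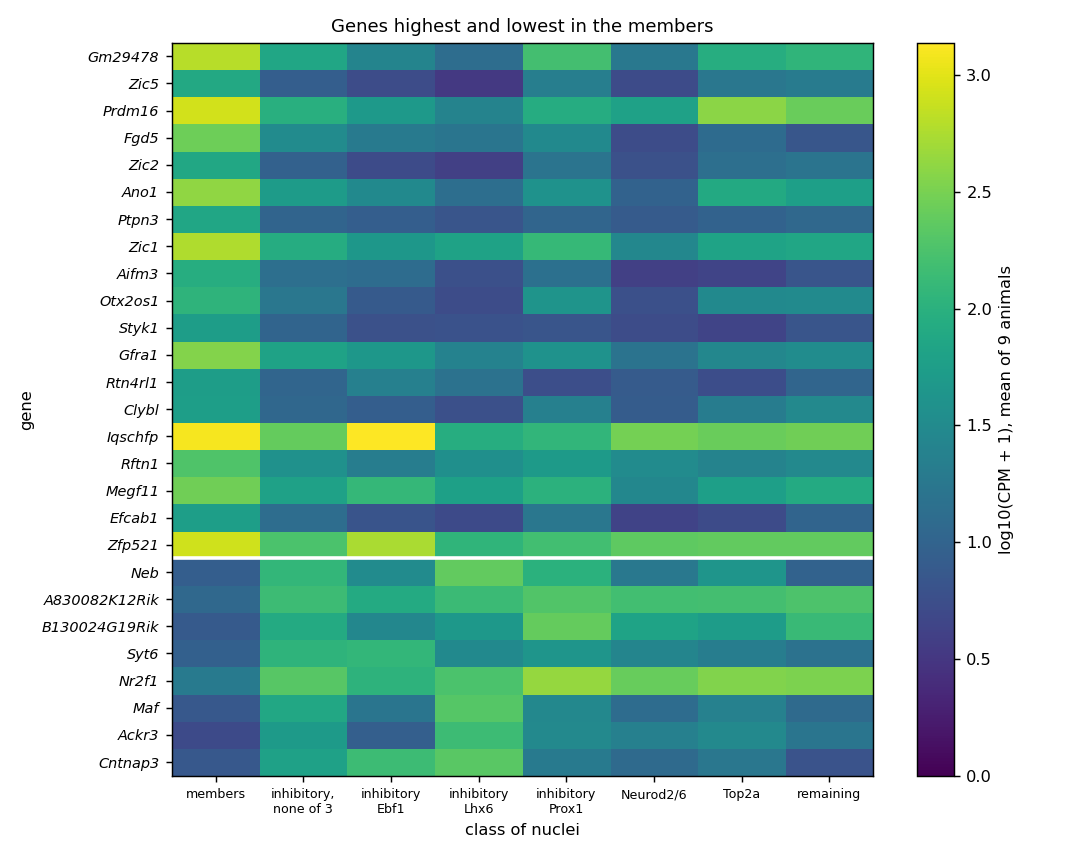
Levels as log10(CPM + 1), means of 9 animals, of 19 of the genes highest (above the white line) and the 8 lowest in members against other inhibitory nuclei, in 8 classes of nuclei. Gm29478, the Zic genes and Prdm16 are brightest in members, and Iqschfp is also bright in inhibitory nuclei with Ebf1.

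Of 15 septal neuron markers, 13 had at least 10 CPM in either class, of which 8 were higher in members in all 9 animals and 2 were lower. A gene that passed this minimum through a single class had to differ, so the counts of this and the next lists are descriptions. Zic2, Zic5, Otx2 and Chat passed through members alone, Lhx2 and Dgkg through other inhibitory nuclei alone, and Zic1 overlaps Zic4 of the rule. The higher ones were Zic1, Zic2, Zic5, Otx2, Prdm16, Slit2, Ntn1 and Chat. Slit2, a secreted guidance cue, was at 447 ± 56.0 CPM against 249, and the guidance cue Ntn1 at 204 ± 25.5 against 89.1. The lower ones were Lhx2, at 9.27 against 27.9 CPM, and Dgkg, at 7.42 against 38.7. The summed level of the list was 2409 CPM in members and 721 in other inhibitory nuclei.

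Of the lists for other cell types, most had more markers lower than higher. The cholinergic list was an exception, with Chat and Isl1 of 5 measured genes higher and Gbx1 lower. The Chat level came mostly from 114 members (4.48%) that formed a cluster of their own, described further on, with 300 CPM against 2.28 in all other members. In members 0 of 9 medial ganglionic eminence markers were higher in all 9 animals and 7 were lower, with 553 against 1329 CPM of Sox6 and 2438 against 8254 of Erbb4. Of 6 caudal ganglionic eminence markers, 4 were lower and none higher. Of 10 striatal projection neuron markers 8 were lower, among them Rarb, Drd2 and Foxp2. The LIM factor Isl1 (181 against 76.7 CPM) and Six3 (111 against 77.6) were the other two and were higher. All 5 excitatory markers and 8 of 11 progenitor markers were lower. No glial, microglial or vascular marker reached 10 CPM in either class, and 1 of 20 diencephalic markers did.

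The GABA and lineage lists were mixed. Of 10 genes of GABA synthesis, transport and reception, 3 were higher, among them Abat and Gabra2, and 3 lower, among them Gabrg3 and Gabbr2. Of 16 subpallial lineage factors, Dlx1 and Zfhx3 were higher and 8 lower, with Tshz1 at 28.7 against 164 CPM and Meis1 at 70.5 against 308. Of 19 neuron maturation genes, 8 were higher and 3 lower. Rbfox1, a splicing factor, was at 5171 ± 339 CPM against 2615, and Sox4, a factor of newborn neurons, at 160 ± 17.8 against 295.

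Axon guidance genes split. Of 25 measured, 9 were higher and 11 lower. The ligands Slit1 (271 against 117 CPM) and Efna5 (1337 against 443), the receptor Dcc (9255 against 5194) and the co-receptors Nrp1 (564 against 223) and Nrp2 (521 against 198) were higher. The receptors Robo2 (734 against 2349), Epha3 (93.9 against 774), Epha4 (170 against 602) and Plxna2 (209 against 838) were lower. Of 2 measured neuropeptide genes, Pnoc, which encodes the nociceptin precursor, was higher at 49.4 ± 16.1 against 8.46 CPM and Sst was lower at 2.44 against 13.2. Of 7 genes of Fgf signalling, Fgf14 was higher and 3 were lower. Of 5 measured TRPC genes outside the rule, 2 were higher, among them Trpc1, and Trpc7 was lower. Of 7 olfactory bulb markers none was higher and 4 were lower.

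Members with Zic4 and members with Prdm12 differed in other genes. Lhx8, a LIM factor of ventral forebrain neurons, was at 150 CPM in members with Zic4 alone, at 5.80 in those with Prdm12 alone and at 5.31 in those with both. Nkx2-1, a factor of the ventral forebrain, was at 50.9, 1.90 and 4.59 CPM in the same order. Both were thus seen mainly in members without Prdm12. In contrast Pax6 was at 47.1, 133 and 66.8 CPM, Foxp2 at 247, 922 and 432, and Meis2 at 1543, 3528 and 2470, each highest in members with Prdm12 alone. Zic1 was at 566, 495 and 661 CPM and varied less. Each animal had all of these groups, with 9.52% to 18.1% of its members holding Prdm12 alone.

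The members were divided into 5 clusters by k-means on 6 principal components of 1000 variable genes, without the genes of the rule. The number of clusters was set for description, and no test was made between them. All clusters held nuclei of all 9 animals.

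Cluster 1 (790 nuclei, 31.0%) was led by Robo3, a guidance receptor, and by St18, Sema5b, Zeb2 and Nfia. St18, a relative of Myt1l, was at 382 CPM against 38.5 in the other members. Of the 5 clusters it had the highest levels of Sox11 (1172 CPM) and Ccnd2 (96.4), the highest summed level of the neuron maturation list (57134 CPM against 30621 to 44422) and the fewest UMIs per nucleus (median 2524). Fgf15 was detected in 53.2% of it.

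Cluster 2 (754 nuclei, 29.6%) was led by Bmper, Hs6st2, Nxph1, Prkcb and Rbfox1, with 10288 CPM of Rbfox1 against 3069. Trpc4 was detected in 98.0% of it. Cluster 3 (480 nuclei, 18.8%) was led by Dcdc5 (1492 against 52.9 CPM), Pax6 (220 against 18.1), Hs3st5, Sema3a and Cntn4, and Prdm12 was detected in 58.5%. It had the highest median UMI count (4034), and 7.29% of it was among the 5% highest doublet scores of a library, against 2.98% of all members. The part of doublets in it was not tested further. Cluster 4 (409 nuclei, 16.1%) was led by Tmem163, Rnf128, Zfpm2 and Rorb. Zic4 was detected in 97.1% and Prdm12 in 19.3%, and Six3 was at 304 CPM against at most 115 in the other clusters.

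Cluster 5 (114 nuclei, 4.48%) was cholinergic-like. It was led by Tacr1, the receptor of substance P, Pde3a, and Chat, the enzyme of acetylcholine synthesis, at 300 CPM against 2.28 in the other members. Of 9 cholinergic markers 8 were at 10 CPM or more, against 2 in each of the other clusters. Slc5a7, the choline transporter, was at 171 CPM, Lhx8 at 593 and Nkx2-1 at 159. Zic4 was detected in 100% of it and Prdm12 in 0.877%, 2 values that the rule ties to each other. Gad1 was at 76.2 CPM against 337 to 908 in the other clusters, Gad2 at 533 against 825 to 1575, and Prdm16 at 18.5 against 346 to 1228. It made up 3.07% to 9.63% of the members of an animal, highest in KO 2 (21 of 218 nuclei).

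**Figure D3:**
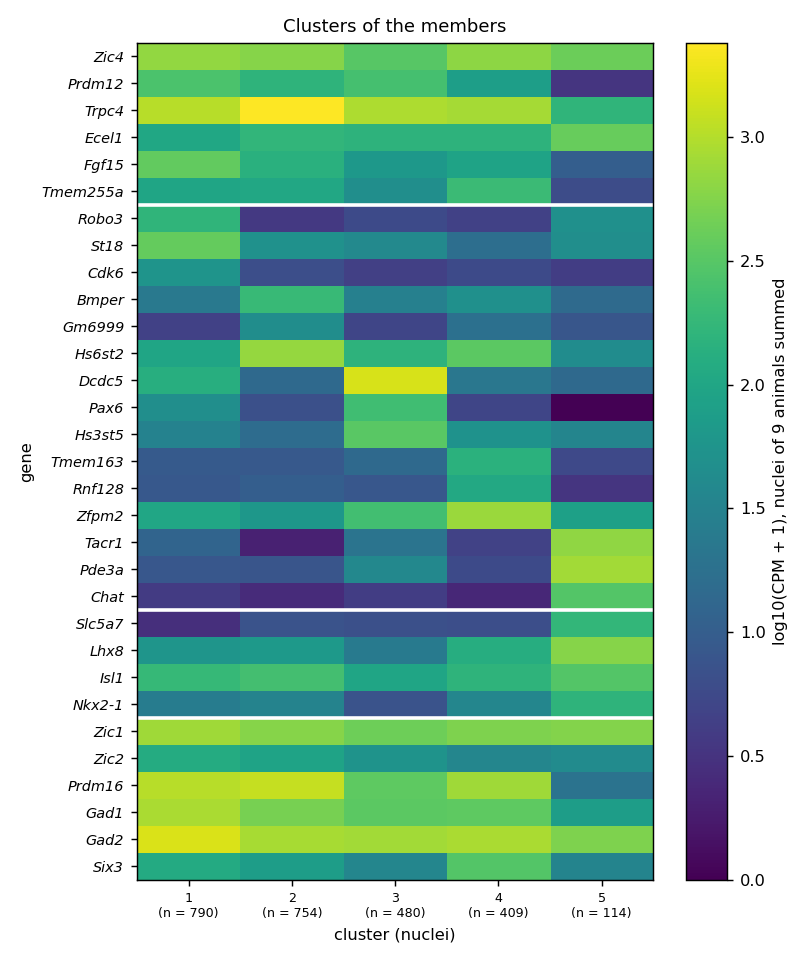
Levels as log10(CPM + 1), nuclei of 9 animals summed, in the 5 clusters of members: the 6 markers of the rule, the 3 leading genes of each cluster, cholinergic genes, and other genes of the text, divided by white lines. Chat, Slc5a7 and Lhx8 stand out in cluster 5, where Prdm12 and Prdm16 are low.

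The share of members was then compared between genotypes. Of all kept nuclei, members were 1.33%, 1.22% and 1.32% in WT, 1.09%, 1.02% and 1.63% in Het, and 1.55%, 0.869% and 1.44% in KO. The Het and KO values lay on either side of those of WT. The means were 1.29% ± 0.0590 (SD, n = 3) in WT, 1.25% ± 0.335 in Het and 1.29% ± 0.366 in KO. In a limma test over 9 classes of nuclei the logit difference was -0.03 (SE 0.13, adjusted p = 0.960) for KO and -0.06 (SE 0.13, adjusted p = 0.970) for Het. All 9 classes had the same SE in this limma fit, so it is a spread pooled over classes and not that of members alone. The exact permutation test gave p = 1 for either mutant, where 0.1 is the smallest value that 3 against 3 animals allow.

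Of inhibitory nuclei, members were 5.24% ± 0.240 in WT, 4.97% ± 1.01 in Het (exact permutation p = 0.7) and 5.29% ± 1.98 in KO (exact permutation p = 1). A single animal set the KO spread. Without KO 2, the KO share of all nuclei was 1.496% ± 0.0741 and lay above every WT animal, and without Het 3 the Het share was 1.06% ± 0.0506 and lay below every WT animal. The exact permutation p was 0.1 in both, the smallest value that 2 against 3 animals allow.

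**Figure D4:**
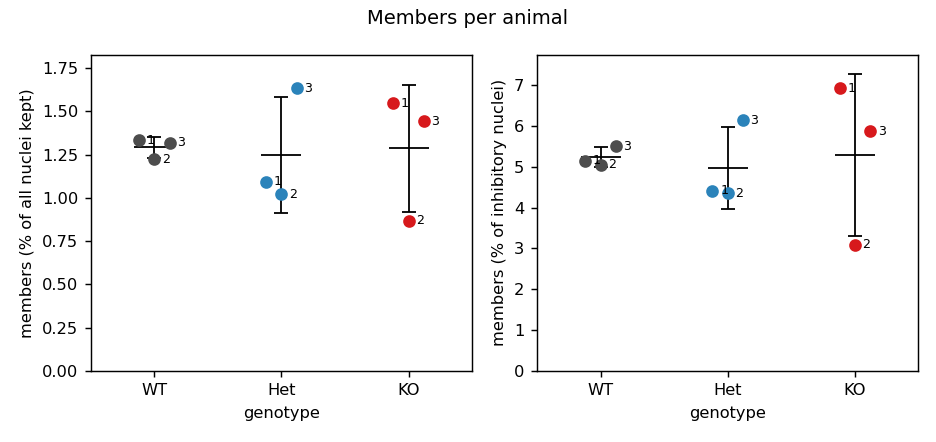
Share of members per animal among all kept nuclei (left) and among inhibitory nuclei (right), in percent. Points are animals, numbered by replicate, and lines with bars are means ± SD of 3 animals. KO 2 is the lowest animal in both panels, at 0.869% and 3.09%.

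In all inhibitory nuclei, which the 6 markers did not choose, none of these markers passed the test between KO and WT, where edgeR called 2 of 18895 genes (0.0106%). Zic4 was at 61.4, 53.3 and 69.3 CPM in WT and at 73.0, 39.2 and 67.0 in KO. KO 2 was the lowest animal and the other KO animals lay in or above the WT range. The log2 difference was -0.02 (SE 0.19, adjusted p = 0.998). Those of Prdm12, Trpc4, Ecel1, Fgf15 and Tmem255a were -0.03, 0.00, 0.05, 0.04 and 0.16, with standard errors of 0.097 to 0.30.

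Within members, edgeR's quasi-likelihood test on counts summed per animal called 0 of 9116 genes between KO and WT (0%) and 0 between Het and WT (0%). A call needed an adjusted p under 0.05 and a log2 difference beyond 0.2. At an unadjusted p under 0.05 there were 455 genes in KO (4.99%), 256 higher and 199 lower, and 347 in Het (3.81%), 178 higher and 169 lower. DESeq2, run without that filter on low counts, also called 0 of 27939 genes in each, with 134 and 100 at an unadjusted p under 0.05. Without a filter on low counts edgeR called 25 of 27940 genes in KO and 19 in Het. Same-numbered WT and Het animals deviated together, and so did same-numbered WT and KO animals of numbers 1 and 3. The main tests did not use the numbers as pairs. An edgeR fit with a replicate block called 2 genes in Het (Gm42418 and Zfp804b), with 452 at an unadjusted p under 0.05. The KO and Het comparisons share the WT animals.

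Myt1l itself was at 1782, 1709 and 1690 CPM in the members of WT, 1882, 1986 and 1873 in Het and 2038, 2108 and 1859 in KO. Every mutant animal was above every WT animal. The log2 difference was 0.24 (SE 0.090, edgeR adjusted p = 0.980) for KO and 0.16 (SE 0.090, adjusted p = 0.999) for Het, so it was not called. A frameshift leaves RNA that can still be counted, so this level does not check the genotype. In other inhibitory nuclei the KO difference was 0.31 (SE 0.078, adjusted p = 0.771), and the difference between the classes was -0.07 (adjusted p = 1.00). Myt1 and St18 differed by 0.13 and 0.09 in KO and were not called.

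The genes of lowest p are given as not called, although without the filter on low counts Phf21a, Maml2, Il1rapl1, Rora, Alcam and Gpc5 were among the 25 called in KO (edgeR adjusted p = 0.00107 to 0.044). Phf21a, part of a histone demethylase complex, was at 335, 382 and 403 CPM in WT, 467, 438 and 397 in Het and 601, 580 and 475 in KO. All KO animals were above all WT animals, with a log2 difference of 0.58 (SE 0.12, edgeR adjusted p = 0.929). Maml2, a Notch co-activator, was at 38.1, 67.3 and 41.4 CPM in WT and 98.6, 110 and 72.8 in KO, a difference of 0.90 (SE 0.21, adjusted p = 0.980). Il1rapl1, Psd3 and Rora had higher values in every KO animal than in any WT animal, with differences of 0.43, 0.44 and 0.71. The genes named here and below were chosen by p on these same animals, so separate groups follow largely from that choice. How many of all tested genes had groups without overlap was not counted.

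In the other direction, the adhesion molecule Alcam was at 263, 187 and 178 CPM in WT and 141, 138 and 124 in KO, a difference of -0.62 (SE 0.15, edgeR adjusted p = 0.980). Dzank1 was at 53.8, 47.2 and 44.6 CPM in WT, 33.8, 35.6 and 38.2 in Het and 30.2, 29.6 and 26.9 in KO. Its groups did not overlap, and the KO difference was -0.74 (SE 0.19, adjusted p = 0.980). Gpc5, Fbxo16 and Gpr155 were lower in every KO animal than in any WT animal, with differences of -0.81, -0.61 and -0.99.

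In Het, the genes of lowest p were Csgalnact1 (-0.95) and Anp32e (-0.93), with Kcnq5, Chrm2 and Ptprk, on the low side, and Sorcs1, Sorcs3, Rasgrf2, Adarb2 and Enox1 on the high side. Csgalnact1, an enzyme of chondroitin sulfate synthesis, was at 47.0, 45.4 and 44.6 CPM in WT, 22.9, 13.7 and 30.9 in Het and 43.4, 39.0 and 39.6 in KO. It was thus low in Het animals and near WT in KO animals, and it was not called (edgeR adjusted p = 0.999). Adarb2 and Kcnq5 were called without the filter on low counts.

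Slc9a9, an endosomal sodium-proton exchanger, was 1 of the 2 genes called in inhibitory nuclei, and Nr6a1os was the other. No gene was called there when only the 6 animals compared were fitted, in run 1 alone, or without WT 1 or WT 2, and 108 were called with the replicate block. In other inhibitory nuclei Slc9a9 rose from 74.0 ± 5.18 CPM in WT to 119 ± 3.63 in KO (n = 3 each), a log2 difference of 0.70 (edgeR adjusted p = 0.0135). In members it was at 49.3, 34.9 and 24.4 CPM in WT and 47.3, 36.3 and 48.3 in KO, which overlap, with a difference of 0.32 (SE 0.23, adjusted p = 0.980). The difference between the classes was -0.37 (SE 0.21, edgeR adjusted p = 1.00) and was not called.

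The KO effect in members was tested against that in other inhibitory nuclei for 13608 genes in a paired edgeR model, which called 0 (0%), with 488 at an unadjusted p under 0.05. Of 14 genes that an earlier analysis of these files had called in KO in other neurons, 12 could be tested in members. Abcg2, Dscam, Maml2 and Nr6a1os were higher at an unadjusted p under 0.05 and none was called. The median KO difference of the 12 was 0.33, against -0.00 over all genes. That list was chosen on these animals and is no independent evidence of a direction.

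No gene of the other lists was called in either mutant. The 11 septal markers tested had a median difference of -0.15 in KO and -0.22 in Het.

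**Figure D5:**
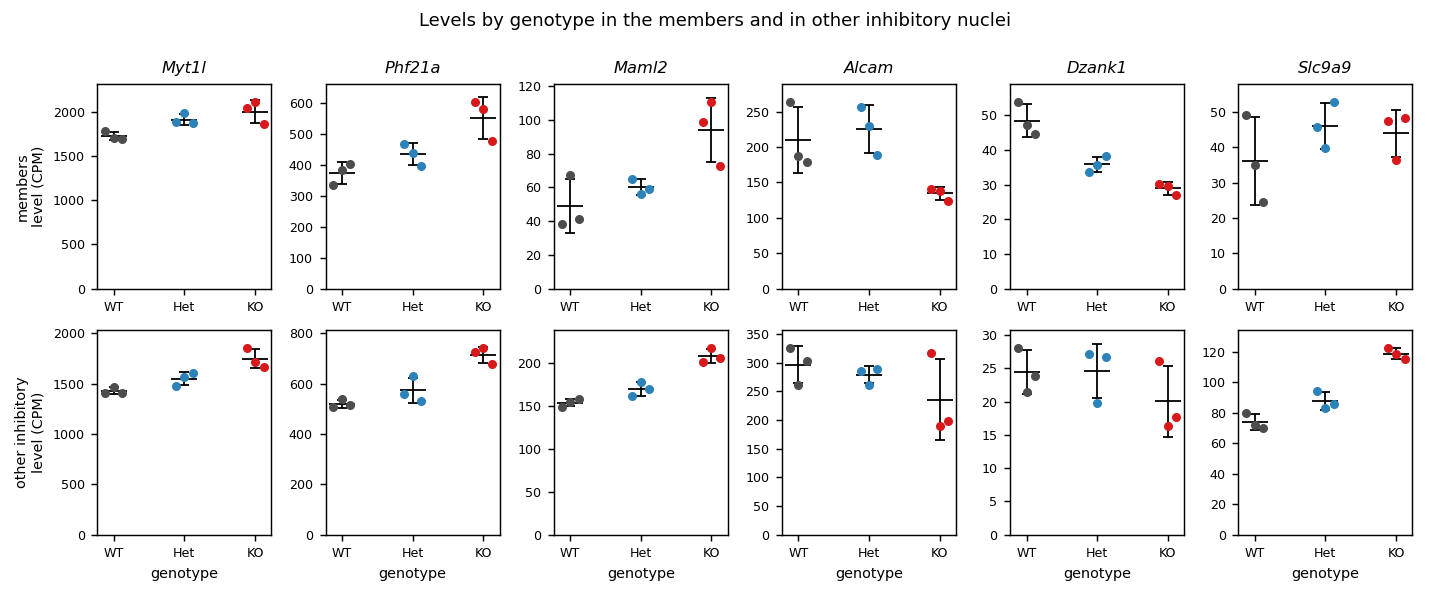
Levels (CPM) of 6 genes by genotype in members (top) and other inhibitory nuclei (bottom). Points are animals and lines with bars are means ± SD of 3 animals. Slc9a9 is higher in every KO animal than in any WT animal in other inhibitory nuclei, and its genotypes overlap in members.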

How the data were processed

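The authors deposited a matrix of expected counts for each of the 18 libraries. UMIs were assigned to genes by the ScaleRna pipeline on mm10, and 6.87% to 9.13% of the stored values are not whole. The submitters' notes also name Seurat 4.3.0, Scanpy 1.12.0 and DESeq2 1.38.3. Use of strand is not stated there. Genotype was taken from the titles, because the genotype tag reads WT for all libraries of run 1.

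The limits on UMIs, genes and mitochondrial UMIs are the study's, its doublet removal was not repeated and its filter on log(genes)/log(UMIs) was an alternative. These limits kept fewer nuclei than the study states, for a reason not found in the files. Detection means a count of at least 1. Counts were summed over runs per animal and class and rounded. Genotypes were compared with edgeR 4.0.16 (filterByExpr, TMM, quasi-likelihood F-test, two-sided, Benjamini-Hochberg over all genes tested), the model of the study with another tool. Shares were tested with limma 3.58.1 on logits with 0.5 nucleus added, and by exact permutation. The animal is the replicate (n = 3), and p-values rest on the spread between these animals. In the main limma fit of shares that spread was pooled over all classes of nuclei. Residuals of same-numbered animals correlated at 0.138 to 0.412 between WT and Het, each over 0.1. Between WT and KO they correlated at 0.00692 to 0.313. Pairs of different number ranged from -0.337 to 0.207, so some exceeded the lowest same-numbered pairs. The main tests did not use the numbers as pairs in either comparison, and the replicate block was an alternative. Scripts were tested on simulated data. Doublets were not removed in the main analysis, and removing the 5% of nuclei with the highest Scrublet scores (scanpy 1.11.5) in each library was an alternative. Other alternatives were DESeq2 1.42.0, other size factors, no filter on low counts, single runs, a rule of 3 markers, nuclei thinned to 1500 UMIs, a replicate block and leaving out each animal.

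Named genes against other inhibitory nuclei were the 20 highest and 8 lowest with at least 50 CPM and the same direction in 9 animals, without the genes of the rule and sex-linked genes (Xist, Tsix and the Y). For genotypes the 5 genes of lowest p with at least 20 CPM in each direction were named. Some genes are not reported here. Clusters were named only from fixed marker lists, and the other genes given by name are the leading genes of clusters or members of those lists. Intervals of shares are exact (Clopper-Pearson, 95%) and cover counting error only. The members and gene lists were chosen with earlier results of these data known. Gene positions are from GENCODE vM21, where 54587 of 55335 identifiers matched with their version.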

Additional observations from a re-analysis of the deposited data

How the results depend on the processing

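The shares of members had no stable direction. Het minus WT on the logit scale was 0.059 in run 1 alone. Leaving out each animal gave -0.14 to 0.15 for KO and -0.20 to 0.034 for Het, the highest KO value without KO 2. Among inhibitory nuclei, KO minus WT was -0.0462 percentage points without high doublet scores, -0.128 with 3 markers, -0.0665 in run 1 and -0.291 after thinning, and Het minus WT was 0.261 in run 1. Leaving out each animal gave -0.756 to 1.16 for KO and -0.851 to 0.043 for Het. None of the logit differences passed the limma test. The shares among inhibitory nuclei had only the exact permutation test, whose smallest p is 0.1, so none could pass. The values without KO 2 (1.16) and without Het 3 (-0.851) reached that smallest p, with no overlap between the groups.

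Counts of called genes in members were 25 in KO and 19 in Het without a filter on low counts, 0 in KO and 2 in Het (Gm42418, Zfp804b) with the replicate block, and 1 in Het (Zfp804b) with 3 markers. Leaving out an animal gave 0 to 1 calls in KO (1, Gm20754, without WT 1). The test of the difference between classes gave 6 calls without the filter, 2 with 3 markers, and 0 to 2 when an animal was left out (2, Galntl6 and Gm29260, without KO 2). The cause was not tested. The block changed no other call in the Het comparison of members. The main tests used no pairs in either comparison, although 8 of 9 animals correlated best with their own number. In all inhibitory nuclei the block raised the KO calls from 2 to 108, DESeq2 called 20, no filter gave 103, and fitting only the 6 animals gave 0.

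Of the markers in inhibitory nuclei, the KO difference (log2) of Trpc4 was -2.3e-05 with DESeq2, -0.0026 without the filter, -0.0021 with the replicate block, -0.013 without high doublet scores, -0.0085 with the filter on log(genes)/log(UMIs) and -0.010 in run 2. Fgf15 gave -0.051 with the block and -0.039 in run 1, and Tmem255a -0.15 in run 1. Leaving out an animal gave Zic4 -0.20 to 0.20, Prdm12 -0.28 to 0.33, Trpc4 -0.053 to 0.089, Ecel1 -0.10 to 0.27 and Fgf15 -0.51 to 0.24. The 28 genes named against other inhibitory nuclei kept their direction, but 7 moved by over 1 SD against all other inhibitory nuclei (Iqschfp 1.49 in place of 2.33, Prdm16 3.64 in place of 3.10), 3 after thinning (Neb -5.41 in place of -4.09, Cntnap3 -4.93 in place of -3.34, Iqschfp 2.03) and 1 with 3 markers (Cntnap3 -4.47). Members held 731403 UMIs in the shallowest animal, which limits genes at low levels.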
